A study of Mus musculus with 12 samples.

Results

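The comparison described here asked whether trimethylamine N-oxide (TMAO), a gut-microbe-derived metabolite, altered the transcriptional response of MIN6 cells to glucose. MIN6 is a single mouse insulinoma line that secretes insulin in response to glucose, and its genotype was given as wild type. All 12 libraries of the series were used, in 4 groups of 3: low glucose (2.8 mM) with vehicle, low glucose with TMAO, high glucose (16.8 mM) with vehicle and high glucose with TMAO. TMAO was given at 100 nM for 18 h, and the libraries carrying its label differed from the vehicle libraries in no other labelled respect. How long the cells were held in high glucose before RNA was taken was not given for the sequenced samples in the sources used here. For each gene, the log2 fold change between low and high glucose was estimated with vehicle and with TMAO, and the response with vehicle was subtracted from the response with TMAO. This difference, the interaction, was estimated for 16222 of the 54022 genes in the table, the others having too few counts. It is above 0 where a rise was larger or a fall smaller with TMAO, and below 0 in the opposite cases.

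Glucose metabolism in a β-cell closes ATP-sensitive potassium channels, depolarises the membrane and opens voltage-gated calcium channels, and the calcium that enters triggers insulin release. The same calcium signal, together with cyclic AMP, activates the factor CREB and the MAP kinases ERK1 and ERK2, which switch on immediate-early genes within minutes. Among the genes that ERK switches on are its own inhibitors, the dual-specificity phosphatases and the Sprouty proteins, which makes a feedback loop. TMAO is formed in the liver from trimethylamine and reaches other tissues through the blood.

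The libraries held 16793162 to 22340542 counts assigned to genes. The 10 β-cell markers examined were all present, with *Ins2* at 22781 to 27445 FPKM (fragments scaled by gene length and library size) and *Mafa* at 461 to 915 FPKM. The glucagon gene *Gcg*, an α-cell marker, was at 199.6 to 227 FPKM and the duct keratin *Krt7* at 19.1 to 22.7 FPKM in every library. *Sox9*, *Krt19*, *Ptprc*, *Hhex*, *Ptf1a*, *Amy2b*, *Pdgfra* and *Adgre1* had no count in any library. The summed level of the α-cell markers was 223 to 228 FPKM in high glucose with vehicle and 222 to 227 FPKM with TMAO, and that of the duct markers was 20.5 to 22.0 and 20.6 to 22.8 FPKM. The macrophage markers, of which *Cd68* alone was tested and *Ptprc* and *Adgre1* were at 0, summed to 2.91 to 3.63 FPKM in low glucose with vehicle and 3.88 to 4.14 with TMAO, and to 4.40 to 4.91 and 4.18 to 4.35 in high glucose. The treatments were thus apart at both glucose levels, higher with TMAO in low glucose, as *Egr1* and *Dusp6* were, and lower in high glucose, and their part in the differences of those genes was not tested. The δ-cell markers were apart the other way in low glucose, at 1.25 to 2.11 FPKM with vehicle and 0.53 to 1.20 with TMAO, and the PP-cell marker *Ppy* had at most 1 count in a library.

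No gene passed the test for a different glucose response with TMAO. Of the 16222 genes, 0 (0%) reached an adjusted p under 0.05 in edgeR's quasi-likelihood test, and the lowest adjusted p was 0.188, that of *Egr1*. DESeq2's Wald test called 1 gene, *Egr1*, and limma on filtered FPKM values called 0. At an unadjusted p under 0.05 there were 545 genes (3.36%), 242 (1.49%) with an interaction above 0 and 303 (1.87%) below 0, whereas uniformly distributed p-values would put 811.1 genes there. The glucose response itself was called in many genes with either treatment. With vehicle, 536 genes (3.3%) were called, 323 higher and 213 lower in high glucose, and with TMAO 591 genes (3.64%) were called, 325 higher and 266 lower. Averaged over both treatments, 670 genes rose (4.13%) and 658 fell (4.06%), and these 1328 genes are called responsive below. The average weights both treatments alike, so that the choice of these genes favours neither response.

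Across the responsive genes the median size of the glucose response was close with and without TMAO. The interaction, signed so that values above 0 mean a larger response with TMAO, had a median of 0.0023 log2 units and quartiles of -0.072 and 0.076. The response was smaller with TMAO in 645 of the 1328 genes (48.6%) and larger in 683, and in 0 genes did it go in opposite directions, which a choice by the average favours. For the genes that rose, the median log2 fold change was 0.32 with vehicle and 0.33 with TMAO. For the genes that fell, it was -0.20 and -0.22. The medians were 1.35 and 1.40 for the 100 genes that rose by more than 1 log2 unit and 2.51 and 2.49 for the 21 that rose by more than 2. Single genes among these strong responders differed more, with quartiles of the interaction of -0.20 and 0.32 for the 100 and -0.50 and 0.28 for the 21. At an unadjusted p under 0.05, 6 of the 100 had a smaller rise with TMAO and 1 a larger one, and of the 21 the numbers were 4 and 0. Among the 670 risen genes, 21 had a smaller and 6 a larger rise with TMAO at an unadjusted p under 0.05, and among the 658 fallen genes, 10 had a smaller and 15 a larger fall. Over all 16222 tested genes, signed in the same way, 262 had a smaller and 283 a larger response at that p. Without the second low glucose TMAO library the median signed interaction was 0.040, a shift larger than the spread between replicates.

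**Figure D1:**
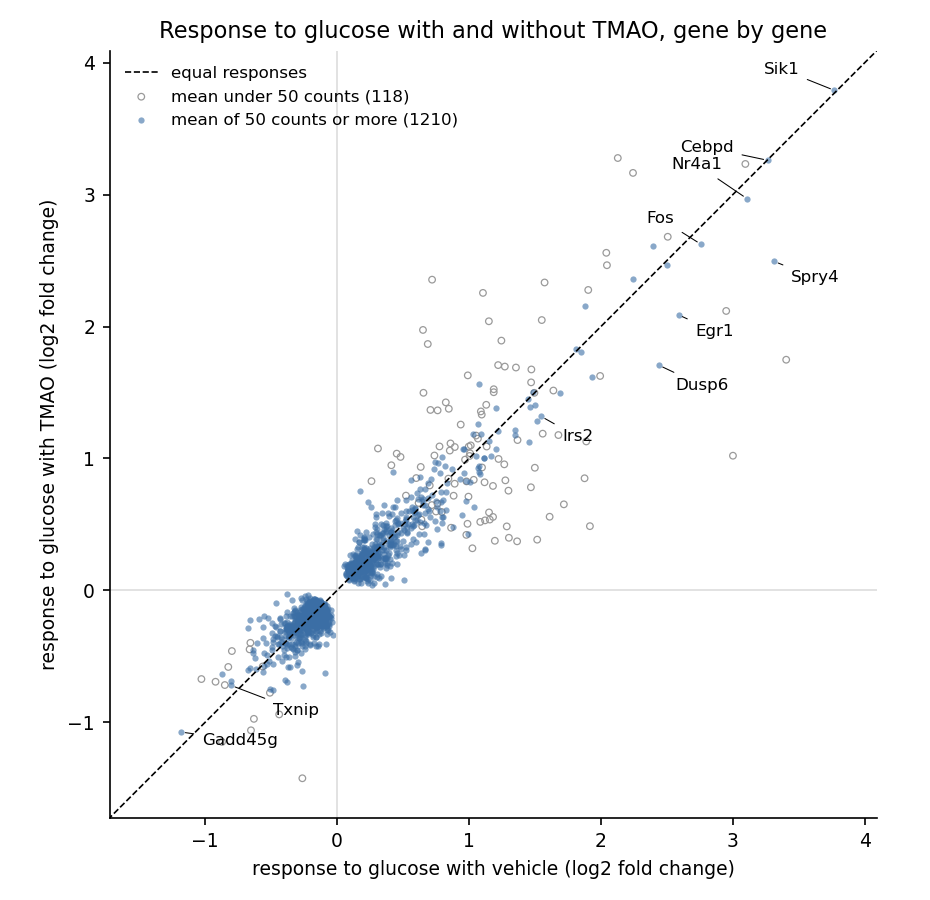
Log2 fold change between low and high glucose with vehicle (horizontal axis) and with TMAO (vertical axis) for the 1328 responsive genes, 1210 with a mean of at least 50 counts per library (filled) and 118 below that (open). Points lie along the dashed line of equal responses, with *Spry4*, *Egr1* and *Dusp6* below it and *Sik1* and *Cebpd* on it.

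The same was seen when the responsive genes were averaged within each library. In high glucose with vehicle, the mean log2 level of the 670 risen genes stood 0.516 ± 0.038 above the low glucose mean with vehicle. With TMAO it stood 0.504 ± 0.017 above the low glucose mean with TMAO. The SD is that of the 3 high glucose libraries alone, and the low glucose libraries had SDs of 0.046 with vehicle and 0.060 with TMAO. The 658 fallen genes stood at -0.238 ± 0.036 with vehicle and -0.248 ± 0.024 with TMAO, with low glucose SDs of 0.015 and 0.024. In both sets the libraries of the 2 treatments overlapped at each glucose level. The genes were chosen from these libraries, so no test is given for the averages.

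**Figure D2:**
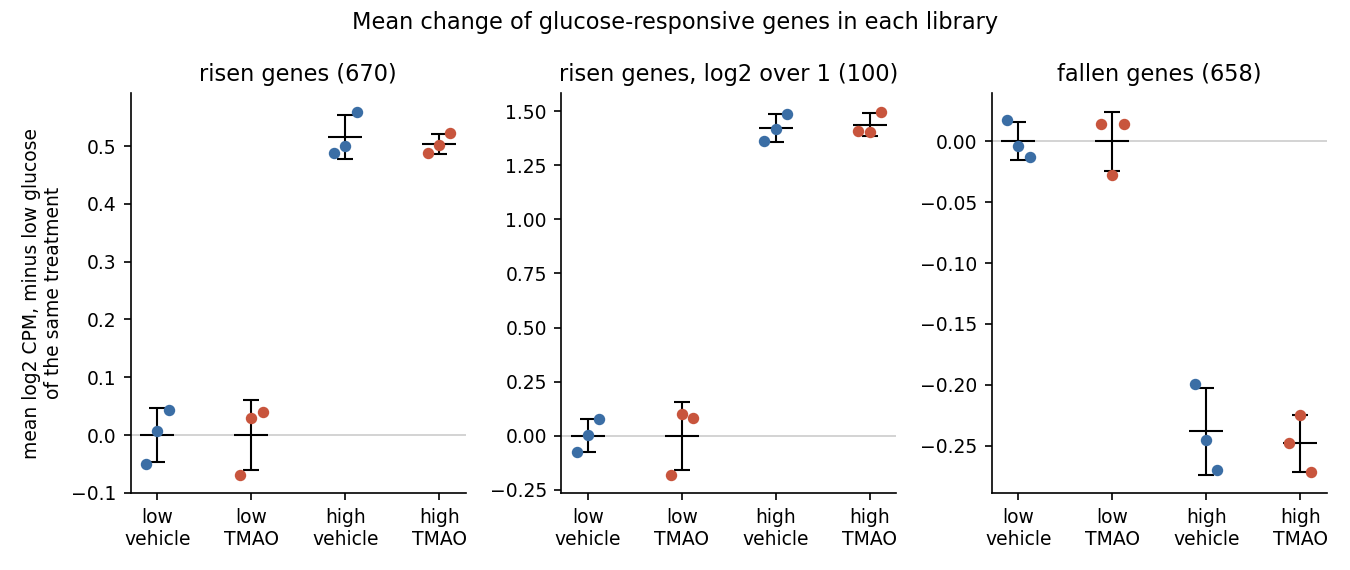
Mean log2 CPM (counts scaled to a common library size) of the risen genes, of the 100 risen by more than 1 log2 unit and of the fallen genes in each library, relative to the low glucose mean of the same treatment. Points are libraries (3 per group, vehicle blue, TMAO red), and lines are means ± SD. The high glucose points of the treatments overlap in every panel.

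Lists of genes called separately for each treatment overlapped in part. They shared 340 genes, 63.4% of those called with vehicle and 57.5% of those called with TMAO. Of the 196 genes called with vehicle only, 193 moved in the same direction with TMAO and 120 had an unadjusted p under 0.05 there. Of the 251 called with TMAO only, 236 moved in the same direction with vehicle, and 147 had an unadjusted p under 0.05 there. The interaction was called in 0 genes of either list. Genes called with a single treatment were picked for a larger value in it, so their median absolute log2 fold changes (0.30 against 0.17 for the vehicle list and 0.28 against 0.16 for the TMAO list, in the treatment that called them and in the other) are a description of that choice.

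The precision of the comparison followed the number of counts. The 95% confidence interval of the interaction lay within a 1.5-fold difference in either direction for 1115 of the 1328 responsive genes (84.0%) and within a 2-fold difference for 1219 (91.8%). The strong responders were less well constrained, with 29 of the 100 genes that rose by more than 1 log2 unit (29.0%) and 5 of the 21 that rose by more than 2 (23.8%) within 1.5-fold. Over all tested genes the share within 1.5-fold was 66.8%. It was 99.1% for genes with a mean of 1000 or more counts and 0.077% below 50 counts, where a difference of that size was not detectable at this depth.

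The genes that rose most included targets of CREB and calcium signalling, with interactions that differed in sign and precision. *Sik1* encodes a salt-inducible kinase that CREB induces and that restrains CREB's coactivators. Its level in CPM (counts scaled to a common library size by the trimmed mean of M values, TMM), was 7.22, 8.24 and 7.33 in low glucose with vehicle and 7.30, 8.84 and 8.27 with TMAO. In high glucose it was 98.1, 98.4 and 115 with vehicle and 107, 117 and 114 with TMAO. The treatments overlapped at both glucose levels and the glucose levels were far apart. The log2 fold change was 3.77 with vehicle and 3.79 with TMAO, and the interaction was 0.02 (95% confidence interval -0.23 to 0.27).

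*Cebpd*, a C/EBP transcription factor gene, read 6.54, 5.93 and 5.01 CPM in low glucose with vehicle and 5.95, 5.96 and 5.80 with TMAO. In high glucose it read 56.1, 48.5 and 64.0 CPM with vehicle and 56.2, 57.2 and 56.6 with TMAO. Both treatments thus gave a log2 fold change of 3.26, with an interaction of -0.0040 (95% confidence interval -0.31 to 0.30). *Cebpd* overlaps *Spidr* on the other strand, and whether the counting used strand was not given in the sources used here.

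The orphan nuclear receptors *Nr4a1* and *Nr4a3* and the AP-1 subunit *Fos* are immediate-early genes. *Nr4a1* was at 6.06, 6.51 and 5.28 CPM in low glucose with vehicle, 6.78, 8.38 and 5.86 in low glucose with TMAO, 48.9, 45.1 and 60.4 in high glucose with vehicle, and 60.5, 49.1 and 56.0 in high glucose with TMAO. Its response was 3.11 with vehicle and 2.97 with TMAO on the log2 scale, an interaction of -0.14 (standard error 0.22). *Nr4a3* responded by 2.40 with vehicle and 2.61 with TMAO, an interaction of 0.22 (standard error 0.31). *Fos* was at 3.11, 2.41 and 2.37 CPM in low glucose with vehicle and 3.47, 3.39 and 3.55 with TMAO, groups that did not overlap, and at 16.1, 18.8 and 18.7 against 26.0, 19.3 and 19.2 in high glucose, where they did not overlap either. Being higher with TMAO at both glucose levels, *Fos* responded by 2.76 and 2.62, an interaction of -0.13 (standard error 0.21). *Nr4a2*, of the same receptor family, responded by 1.81 and 1.83.

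Over the list of 15 CREB targets, 14 were tested and all 14 were called higher in high glucose with each treatment, beside 1.99% of all tested genes with vehicle and 2% with TMAO. Their median response was 1.52 log2 units with vehicle and 1.41 with TMAO, and their median interaction was -0.023 (-0.060 to 0.044 with a library left out), beside -0.0012 over all tested genes. Of the 14, 8 had an interaction below 0 (57.1%, beside 50.4% of all tested genes), 0 were called, and 1, *Irs2*, had an unadjusted p under 0.05. *Irs2*, the insulin receptor substrate that supports β-cell growth and survival, was at 99.8, 97.0 and 101 CPM in low glucose with vehicle and 104, 103 and 118 with TMAO. In high glucose the values were 306, 264 and 300.2 CPM with vehicle and 259, 282 and 268 with TMAO. TMAO libraries were thus the higher ones in low glucose, without overlap, and the lower ones on average in high glucose, with overlap. The response was 1.55 with vehicle and 1.32 with TMAO, and the interaction of -0.23 (standard error 0.079, unadjusted p = 0.00731) did not pass after adjustment by edgeR (adjusted p = 1.00).

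The lowest interaction p belonged to *Egr1*, an immediate-early zinc finger transcription factor that is switched on through ERK and its target factors. In low glucose *Egr1* was at 16.8, 18.4 and 16.8 CPM with vehicle and 23.9, 27.5 and 23.2 with TMAO. High glucose gave 106, 100.05 and 108 CPM with vehicle and 113, 104 and 100.1 with TMAO. The TMAO libraries lay above the vehicle libraries in low glucose without overlap, and the groups overlapped in high glucose. *Egr1* rose 6.02-fold with vehicle and 4.25-fold with TMAO (log2 fold changes 2.59 and 2.09), and the interaction was -0.50 (95% confidence interval -0.70 to -0.31, unadjusted p = 1.16e-05 and adjusted p = 0.188 in edgeR). Called by DESeq2's Wald test (adjusted p = 0.0462), with no filter on low counts (0.00113) and without the first high glucose TMAO library (0.0431), *Egr1* was not called under any other alternative, and the adjusted p-values of edgeR, limma and DESeq2 ran from 0.00113 to 0.9999.

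The interaction is the difference between treatments in high glucose minus that in low glucose, and for *Egr1* nearly all of it lay in low glucose. The TMAO libraries exceeded the vehicle libraries by 0.52 log2 units in low glucose (standard error 0.075, edgeR adjusted p = 0.00207) and by 0.02 in high glucose (standard error 0.058). *Egr1* was the only gene of 16222 called between treatments in low glucose (0.00616%). Without the second low glucose TMAO library, the one with the highest *Egr1* level, the difference was 0.44 and the adjusted p in edgeR was 0.0721, and with limma on the FPKM values it was not called (adjusted p-values over all alternatives ran from 4.23e-08 to 0.431).

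Inhibitors that act as feedback on MAP kinases had the lowest median interaction of the lists with more than 2 tested members. Of 17 listed genes 16 were tested, 13 had an interaction below 0, and the median was -0.10, beside -0.0012 and 50.4% below 0 over all tested genes. None was called, while 4 had an unadjusted p under 0.05 below 0 and 1 above 0, beside 1.87% and 1.49% of all tested genes. The median response of the list was 0.86 log2 units with vehicle and 0.70 with TMAO, and 10 and 9 members were called as higher in high glucose with each treatment, beside 1.99% and 2% of all tested genes. With a library left out the median interaction ran from -0.16, without the first low glucose TMAO library, to -0.070.

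*Dusp6*, a cytoplasmic phosphatase that inactivates ERK, was at 1.84, 2.47 and 1.99 CPM in low glucose with vehicle and 4.04, 4.16 and 3.12 with TMAO. High glucose gave 9.83, 11.4 and 13.2 CPM with vehicle and 11.4, 13.4 and 12.1 with TMAO. As with *Egr1*, the treatments were apart in low glucose and overlapped in high glucose. The rise was 5.43-fold with vehicle and 3.26-fold with TMAO, an interaction of -0.73 (standard error 0.22, unadjusted p = 0.00230 in edgeR). With limma on log2(FPKM + 1) the *Dusp6* interaction was -0.31.

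*Spry4*, a Sprouty inhibitor of signalling from receptor tyrosine kinases to ERK, was at 1.05, 1.10 and 1.67 CPM in low glucose with vehicle and 1.45, 3.34 and 2.31 with TMAO. In high glucose it was at 11.4, 12.2 and 14.6 CPM with vehicle and 11.7, 14.5 and 13.9 with TMAO. The treatments overlapped at both glucose levels for this low-count gene, which had 20 to 322 counts per library. The rise was 9.95-fold with vehicle and 5.63-fold with TMAO, an interaction of -0.82 (standard error 0.31, unadjusted p = 0.0150 in edgeR). The *Spry4* interaction was -0.48 without the second low glucose TMAO library and -0.19 with limma on log2(FPKM + 1), a scale that understates changes of low genes.

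Among the other members, the nuclear phosphatases *Dusp4* and *Dusp5*, which also act on ERK, had small interactions with small errors. *Dusp5* was at 49.7, 49.2 and 45.2 CPM in low glucose with vehicle and 50.9, 55.0 and 55.0 with TMAO, and at 101, 95.5 and 109 against 99.0, 101 and 99.4 in high glucose. *Dusp4* was at 104, 104 and 95.7 CPM against 112, 116 and 114 in low glucose, and at 229, 214 and 238 against 217, 241 and 232 in high glucose. For both genes the treatments were apart in low glucose and overlapped in high glucose, and the interactions were -0.18 and -0.15 (unadjusted p = 0.0285 and 0.0491 in edgeR). *Spry1* had an interaction of -0.33 (unadjusted p = 0.0676 in edgeR). *Dusp1*, whose product also acts on the stress kinases and which is a CREB target, responded by 1.85 with vehicle and 1.81 with TMAO.

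*Errfi1*, an inhibitor of the epidermal growth factor receptor, went the other way. It was at 55.6, 53.4 and 56.0 CPM in low glucose with vehicle and 54.1, 56.9 and 51.3 with TMAO, and at 114, 128 and 137 against 138, 138 and 147 in high glucose. Here the treatments overlapped in low glucose and were apart in high glucose, with TMAO above vehicle. The response was 1.20 with vehicle and 1.38 with TMAO, an interaction of 0.18 (unadjusted p = 0.0378 in edgeR).

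**Figure D3:**
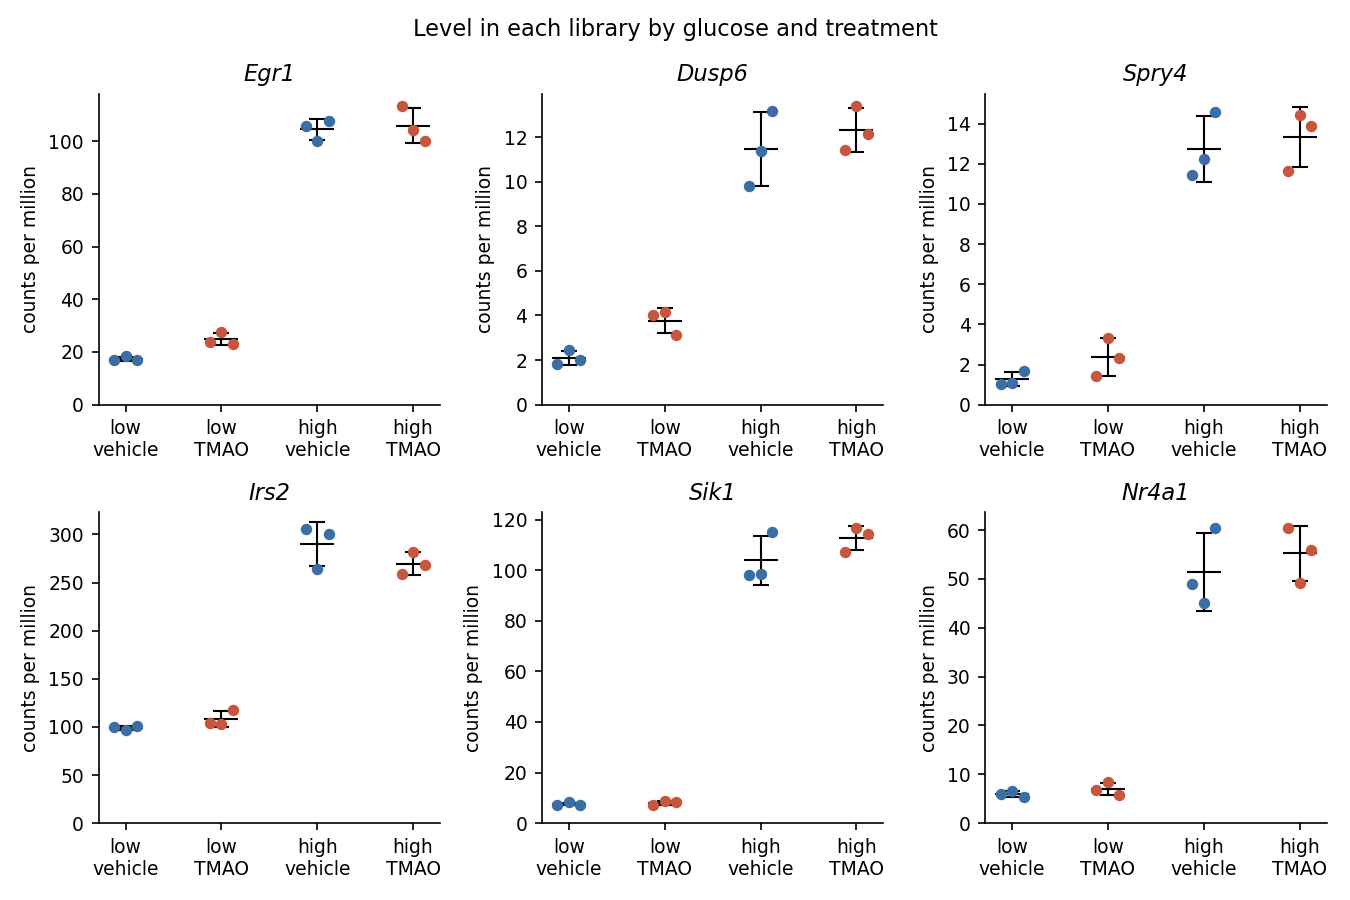
Level (CPM) of 6 genes in each library, with a separate linear axis from 0 for each gene. Points are libraries (3 per group, vehicle blue, TMAO red), and lines are means ± SD. For *Egr1* and *Dusp6* the TMAO points lie above the vehicle points in low glucose and overlap them in high glucose, whereas for *Sik1* and *Nr4a1* the treatments overlap at both glucose levels.

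The immediate-early genes, which are transcribed within minutes of a stimulus, leaned below 0 as well. Of 31 tested out of 32, 24 had an interaction below 0 (77.4%), with a median of -0.089, and 0 were called. *Egr1* was the one member with an unadjusted p under 0.05. The median response was 0.78 log2 units with vehicle and 0.58 with TMAO, and 20 and 18 members were called as higher in high glucose, beside 1.99% and 2% of all tested genes. In low glucose 24 of the 31 were higher with TMAO (median difference 0.069), beside 50.7% of all tested genes, and in high glucose 15 were lower (median difference 0.011). For the MAP kinase inhibitors, 12 of 16 were higher with TMAO in low glucose (median 0.096) and 6 were lower in high glucose (median 0.023). Other lists had such shares in low glucose too, where 20 of 22 cholesterol synthesis genes (90.9%), 15 of 17 hormone, granin and processing genes (88.2%), 10 of 13 mitochondrially encoded subunits (76.9%) and 15 of 20 channel and RGK protein genes (75%) were higher with TMAO as well. The median interaction of the immediate-early genes was -0.030 without the third low glucose TMAO library.

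The size of these differences depended on the scale. A fold change divides by the low glucose level, and where TMAO libraries started higher the same gain is a smaller fold. *Egr1* gained 87.1 CPM with vehicle and 81.0 with TMAO, a difference of -6.13 CPM (standard error 4.72) or -7.03% of the vehicle gain, beside a fold that was lower by 29.3%. *Dusp6* gained 9.36 and 8.54 CPM, a difference of -0.82 (standard error 1.19), and *Spry4* 11.5 and 11.0 CPM, a difference of -0.51 (standard error 1.40). *Irs2* differed by about as much on both scales, gaining 191 CPM with vehicle and 161 with TMAO, a difference of -29.4 CPM (standard error 15.5) or -15.4%, beside a fold that was lower by 14.7%. *Nr4a1* and *Fos* gained more CPM with TMAO, by 2.68 (standard error 5.71) and 2.81 (standard error 2.42), although their folds were lower.

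**Figure D4:**
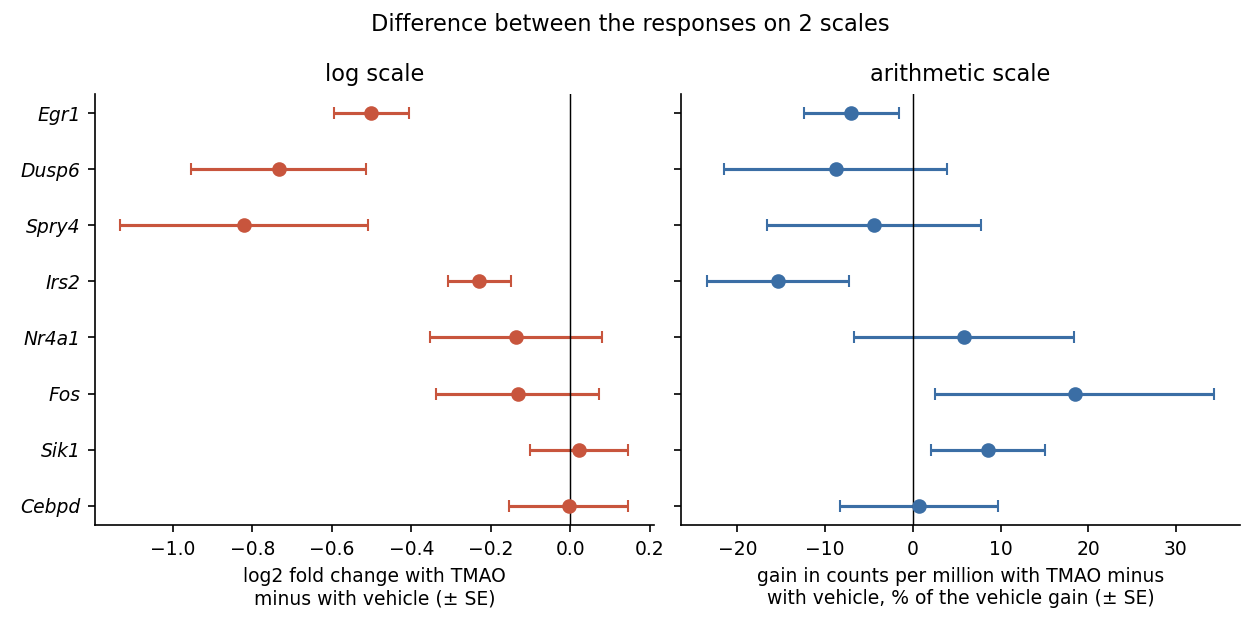
Response with TMAO minus response with vehicle for 8 risen genes, as a difference of log2 fold changes (left) and as a difference of the gains in CPM, in percent of the gain with vehicle (right). Points are estimates with standard errors. *Egr1*, *Dusp6* and *Spry4* lie well below 0 on the left and between -8.80% and -4.42% on the right.

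The bases upstream of a pair of CREB targets and a pair of MAP kinase inhibitors are given to show what these members share and where they differ. Sequences are from RefSeq on GRCm38.p6, 250 bases up to the start of each gene, 5′ to 3′ on the gene's strand. Capitals mark TGACG or its reverse complement, the core of the cyclic AMP response element that CREB binds, and in Nr4a1 also the EGR motif GCGNGGGCG on its reverse strand. Nr4a1 is at chr15:101266596-101266845 (plus strand), Fos at chr12:85473640-85473889 (plus strand), Dusp6 at chr10:99262981-99263230 (plus strand) and Dusp5 at chr19:53528895-53529144 (plus strand).
Nr4a1: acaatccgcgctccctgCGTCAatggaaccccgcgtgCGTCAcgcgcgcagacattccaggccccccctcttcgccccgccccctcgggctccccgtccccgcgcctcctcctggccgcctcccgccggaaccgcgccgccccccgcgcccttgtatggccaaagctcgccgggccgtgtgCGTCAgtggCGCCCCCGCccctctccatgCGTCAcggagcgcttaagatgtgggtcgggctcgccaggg
Fos: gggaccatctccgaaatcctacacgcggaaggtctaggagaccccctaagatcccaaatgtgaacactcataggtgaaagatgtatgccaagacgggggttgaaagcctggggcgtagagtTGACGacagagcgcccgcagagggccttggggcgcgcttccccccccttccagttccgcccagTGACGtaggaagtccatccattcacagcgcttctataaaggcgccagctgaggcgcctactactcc
Dusp6: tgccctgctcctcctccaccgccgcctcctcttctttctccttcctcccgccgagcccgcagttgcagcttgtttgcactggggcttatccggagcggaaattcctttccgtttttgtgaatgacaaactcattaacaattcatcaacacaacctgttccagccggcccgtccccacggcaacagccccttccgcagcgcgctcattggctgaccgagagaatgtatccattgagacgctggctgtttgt
Dusp5: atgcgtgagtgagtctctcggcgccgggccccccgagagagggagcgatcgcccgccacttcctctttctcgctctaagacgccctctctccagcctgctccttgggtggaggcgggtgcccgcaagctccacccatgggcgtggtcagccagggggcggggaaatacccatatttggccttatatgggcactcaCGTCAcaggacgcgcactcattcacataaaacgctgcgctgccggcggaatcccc

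This core occurred 4 times upstream of Nr4a1, 2 times upstream of Fos, 1 time upstream of Dusp5 and 0 times upstream of Dusp6. On either strand it was found in 17.8% of all 32851 such sequences (27025 genes), in 26.1% of the 13831 sequences that matched 10777 of the tested genes by symbol, in 38.0% of the 594 of 435 risen genes and in 6 of the 16 (15 genes) of the MAP kinase inhibitor list. The full element TGACGTCA, which contains the core, was found in 1.55% of all, 2.62% of those of tested genes, 7.07% of those of risen genes and 3 of the 16. The AP-1 motif TGANTCA was found in 6.75% of all, 4.37% of those of tested genes, 5.56% of those of risen genes and 0 of the 16. For the EGR motif these shares were 4.70%, 8.63% and 9.76%, and 2 of the 16 held it. Of other members searched, the CREB target Irs2 held the core 0 times in its window. The MAP kinase inhibitor Errfi1 held it 2 times, within 1 full element, in the window at chr4:150854820-150855069, and 0 times in that at chr4:150853546-150853795. These matches describe the letters in the windows searched and nothing about which factor was bound.

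Of the genes that fell in high glucose, *Gadd45g*, a growth arrest and stress response gene, was at 71.7, 64.0 and 67.4 CPM in low glucose with vehicle and 61.8, 53.5 and 64.7 with TMAO. High glucose gave 32.3, 28.5 and 28.7 CPM with vehicle and 28.9, 30.9 and 25.4 with TMAO. It fell by 1.18 log2 units with vehicle and by 1.07 with TMAO, an interaction of 0.11 (standard error 0.11).

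*Txnip*, the thioredoxin-interacting protein that is a target of the glucose-sensing factor ChREBP, fell from 116, 113 and 111 to 66.5, 70.3 and 57.2 CPM with vehicle and from 115, 111 and 102 to 65.3, 70.4 and 62.4 with TMAO. The treatments overlapped at both glucose levels, and the interaction was 0.08 (95% confidence interval -0.10 to 0.26). *Smad6*, an inhibitor of bone morphogenetic protein signalling, fell by 0.87 and 0.64, *Zfp39* by 0.80 and 0.69, 1810032O08Rik by 0.67 and 0.61 and the T-box gene *Tbx3* by 0.66 and 0.59. In all 6 genes the log2 fall was smaller with TMAO by no more than 0.23, against standard errors of 0.089 to 0.23. This did not extend to the 658 fallen genes, of which 309 had a smaller and 349 a larger fall with TMAO, or to the 36 that fell by more than 0.5, with 20 and 16. Of the list of *Txnip*, arrestin-domain and ChREBP genes, 16 of 17 were tested, 7 had an interaction below 0 and 9 above, 0 were called, and the median was 0.018. The lowest p in it was that of *Acly*, ATP citrate lyase (interaction -0.09, unadjusted p = 0.116 in edgeR).

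The other genes with the lowest interaction p had estimated responses of opposite sign with the 2 treatments, from -0.39 (*Apoo-ps*) to 0.25 (*Otud7a*) with vehicle, none of them called, and from -0.74 (*Cbfa2t2-ps1*) to 0.58 (*Apoo-ps*) with TMAO, where *Otud7a*, *Fuk* and *Cbfa2t2-ps1* were called lower and *Lrif1* higher in high glucose. *Otud7a*, a deubiquitinase gene, was at 17.8, 18.2 and 16.7 CPM in low glucose and 21.3, 20.6 and 21.0 in high glucose with vehicle, and at 18.7, 18.8 and 24.7 and then 16.6, 16.5 and 16.2 with TMAO. Its level was thus higher in high glucose with vehicle and lower in high glucose with TMAO, and its interaction was -0.59 (standard error 0.13, adjusted p = 0.614 in edgeR and 0.0144 with no filter on low counts, over alternatives from 0.0144 to 0.9999). The fucokinase gene *Fuk* (-0.38), the splicing factor gene *Prpf40b* (-0.26) and the processed pseudogene *Cbfa2t2-ps1* (-0.85) followed. *Cbfa2t2-ps1* was called in edgeR with no filter on low counts (adjusted p = 0.0110, over alternatives from 0.0110 to 1.00).

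On the other side, *Immt*, the organiser of mitochondrial cristae, was at 149, 138 and 146 CPM in low glucose and 126, 135 and 133 in high glucose with vehicle, and at 140, 139 and 130 and then 146, 148 and 141 with TMAO. The response was -0.14 with vehicle and 0.08 with TMAO, an interaction of 0.22 (standard error 0.067, unadjusted p = 0.00265 in edgeR). The small GTPase gene *Arl5a* (0.22), the copine gene *Cpne4* (0.30), *Lrif1* (0.30), the pseudogene *Apoo-ps* (0.97) and 1810014B01Rik (0.50), which overlaps *Hsp90b1* on the other strand, were the others. The 12 genes of these 2 paragraphs and of the *Egr1* and *Dusp6* paragraphs were chosen for their low interaction p, so their values describe that choice.

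For genes of the steps from glucose to insulin release the list medians lay from -0.058 to -0.014, while single members ranged more widely. Over all tested genes the median was -0.0012, with 50.4% below 0. Of the 16 glucose sensing genes, 11 had an interaction below 0 and the median was -0.058, or -0.094 to -0.029 with a library left out. *Slc2a2*, the glucose transporter of β-cells, responded by 0.07 with vehicle and 0.12 with TMAO, and *Pfkm*, a phosphofructokinase that overlaps *Senp1*, had the lowest p (interaction -0.14, unadjusted p = 0.0622 in edgeR). Of 20 tested channel and RGK protein genes, 13 were below 0 and the median was -0.032, with members from -0.87 to 0.11 and 2 at an unadjusted p under 0.05 below 0, beside 1.87% of all tested genes. Of 30 tested exocytosis genes 18 were below 0, with a median of -0.024 and members from -0.63 to 0.46, and the syntaxin *Stx3* had the lowest p (interaction 0.15, unadjusted p = 0.0365 in edgeR). Of the 17 hormone, granin and processing genes 10 were below 0, with a median of -0.014. The insulin genes responded by 0.04 with vehicle and 0.06 with TMAO (*Ins1*) and by 0.08 and 0.07 (*Ins2*), and the granin *Chga* by 0.06 and 0.03.

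The calcium stores of the endoplasmic reticulum are filled by the SERCA pumps and emptied through ryanodine and inositol trisphosphate receptors. *Atp2a2* (SERCA2) was at 1773 to 1820 CPM in the 6 low glucose libraries and 1863 to 1946 in the 6 high glucose libraries, and it responded by 0.09 with vehicle and 0.08 with TMAO. The interaction was -0.0097 (95% confidence interval -0.11 to 0.096). *Atp2a3* (SERCA3) responded by 0.06 with vehicle and -0.03 with TMAO, an interaction of -0.10 (standard error 0.057, unadjusted p = 0.0959 in edgeR). Of the receptors, *Itpr1* had an interaction of 0.00, *Itpr2* of -0.24, *Itpr3* of -0.22 (unadjusted p = 0.056 in edgeR), *Ryr2* of -0.07 and *Ryr3*, which overlaps *Aven*, of -0.11. *Ryr1*, with at most 3 counts in a library, was not tested, and *Atp2a1* (SERCA1), which overlaps *Rabep2*, had a mean of 15.6 counts and an interaction of 0.31 (standard error 0.58). Over the list 17 of 21 genes were tested, 11 were below 0, 0 were called and the median was -0.022. Among 16 tested plasma membrane and mitochondrial calcium genes 7 were below 0 and the median was 0.032, or -0.019 without the second high glucose TMAO library, with the sodium-calcium exchanger *Slc8a2* at -0.26 (unadjusted p = 0.0187 in edgeR).

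**Figure D5:**
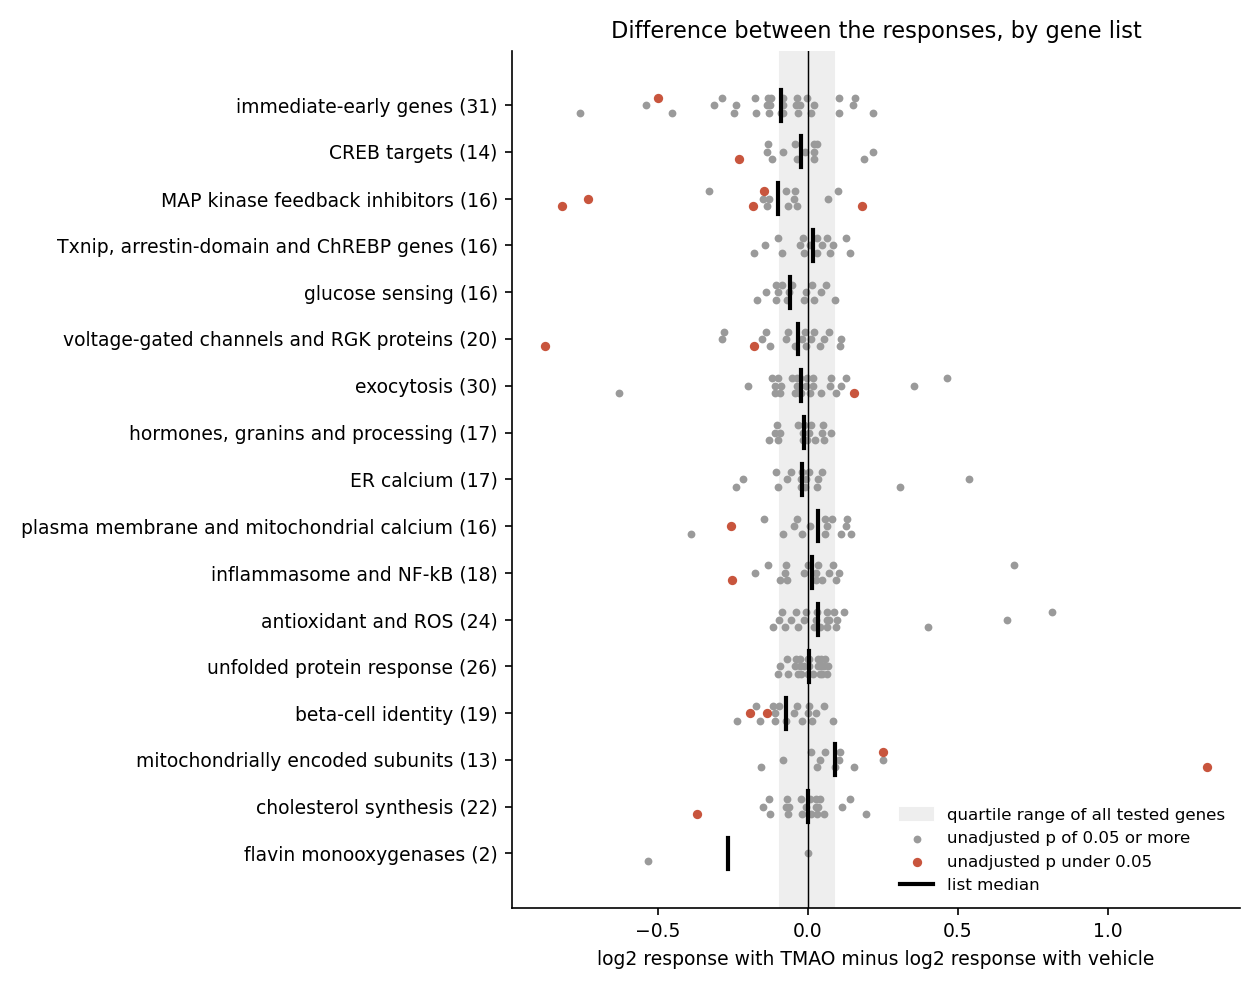
Response with TMAO minus response with vehicle (difference of log2 fold changes) of every tested member of the 17 gene lists, with the number tested in brackets. Black bars are list medians, red points have an unadjusted p under 0.05, and the grey band spans the quartiles of all tested genes (-0.094 to 0.085). The median of the MAP kinase inhibitors (-0.10) lies just left of the band and that of the mitochondrially encoded subunits (0.091) just right of it. That of the immediate-early genes (-0.089) lies inside its left edge. The median of the flavin monooxygenases (-0.27, 2 tested) lies further left.

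Transcription factors of β-cell identity leaned below 0 by small amounts. Of 19 tested, 14 had an interaction below 0 and the median was -0.074, beside 50.4% and -0.0012 over all tested genes. None was called, and 2 had an unadjusted p under 0.05 below 0 and 0 above 0, beside 1.87% and 1.49% of all tested genes. With a library left out the median ran from -0.11 to -0.034, the latter without the first high glucose vehicle library, and it was also over 1.5 times closer to 0 without the third low glucose TMAO, the second high glucose vehicle or the first high glucose TMAO library. *Pdx1*, a master regulator of β-cells, was at 391, 381 and 373 CPM in low glucose with vehicle and 413, 408 and 407 with TMAO, and at 434, 411 and 417 against 398, 430 and 405 in high glucose. The treatments were apart in low glucose and overlapped in high glucose, and the response was 0.14 with vehicle and 0.01 with TMAO (interaction -0.14, unadjusted p = 0.0288 in edgeR). *Insm1*, a zinc finger factor of endocrine differentiation, responded by 0.23 and 0.04 (unadjusted p = 0.0451), and the insulin gene activator *Mafa* by 0.66 and 0.43 (unadjusted p = 0.171). *Neurod1* rose by 0.58 and 0.59 and was called with both treatments. *Sox9* and *Neurog3* had no counts.

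Of 18 tested inflammasome and NF-κB genes, 9 were below 0 and 9 above, with a median of 0.013. *Relb*, a subunit of the non-canonical NF-κB pathway, was at 30.2, 31.0 and 34.6 CPM in low glucose and 44.5, 42.3 and 44.6 in high glucose with vehicle, and at 33.1, 31.8 and 36.8 and then 43.1, 37.2 and 37.0 with TMAO. Its response was 0.46 with vehicle and 0.20 with TMAO, an interaction of -0.25 (standard error 0.10, unadjusted p = 0.0183 in edgeR). *Nfkb1* and *Rela* had interactions of 0.09 and 0.05. *Il1b* and *Pycard* had means of 24.0 and 8.42 counts and interactions of 0.69 (standard error 0.45) and -0.18 (standard error 0.75), and *Nlrp3*, *Casp1* and *Aim2*, with at most 6 counts in a library, were not tested.

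Among stress genes, 9 of 24 tested antioxidant genes and 12 of 26 unfolded protein response genes were below 0, with medians of 0.034 and 0.0025 and 0 members of either at an unadjusted p under 0.05. The sensors of the unfolded protein response had interactions of 0.0040 (*Eif2ak3*), -0.07 (*Ern1*) and 0.03 (*Atf6*), and *Xbp1* of 0.04. The lowest p of these lists were those of glutathione reductase *Gsr* (-0.12) and *Atf6b* (-0.09). Of 22 cholesterol synthesis genes, 11 were below 0 and the median was -0.0012. *Mvd*, mevalonate diphosphate decarboxylase, was at 21.6, 21.1 and 20.2 CPM against 25.7, 23.1 and 28.2 in low glucose and at 22.9, 21.4 and 22.0 against 19.0, 22.8 and 20.8 in high glucose, for an interaction of -0.37 (unadjusted p = 0.00321 in edgeR). Of the 5 flavin monooxygenase genes 2 were tested, with *Fmo1* at -0.53 (standard error 0.41).

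The mitochondrially encoded subunits of the respiratory chain were the list that leaned most above 0. Of 13 tested, 11 had an interaction above 0, beside 49.6% of all tested genes, the median was 0.091 and 0 were called. The median was 0.038 without the first high glucose vehicle library, about the same without the third low glucose TMAO library, and at most 0.13 with any other left out. The median response was 0.02 with vehicle and 0.14 with TMAO. *mt-Nd3* of complex I responded by 0.05 and 0.30 (interaction 0.25, unadjusted p = 0.0372 in edgeR), and *mt-Atp8*, which overlaps *mt-Atp6* on the same strand and had a mean of 16.3 counts, by -0.62 and 0.71 (unadjusted p = 0.0156). In high glucose 0 of the 13 were lower with TMAO, the median difference being 0.14. These transcripts are cut from long joint precursors, so their values are not independent of each other.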

How the data were processed

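RNA was sequenced from MIN6 cells in 12 libraries, which the study describes as biologically independent cell samples, 3 per group. The deposited table held raw counts per gene made by the authors, with FPKM values beside them. The submitters' processing notes name HISAT2 2.0.5, featureCounts 1.5.0-p3, DESeq2 1.16.1 and the mouse build mm10, and settings for strand and shared reads were not given in the sources used here. Counts were tested with edgeR 4.0.16 in R 4.3.3 (quasi-likelihood F test with robust estimation, TMM scaling, filterByExpr by group) in a model of the 4 group means, with Benjamini-Hochberg adjustment over 16222 genes and calls at 0.05. The biological coefficient of variation was 5.34%. Per-gene CPM values are TMM-scaled, and the library averages use log2 CPM with a prior count of 2. Arithmetic gains are differences of mean CPM, with standard errors from the spread between replicates. Totals of 16793162 to 22340542 counts limit precision for genes with few counts, and confidence intervals are at 95%. The scripts were tested on simulated data.

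Named genes were the 6 with the lowest interaction p in each direction (mean of at least 50 counts), the 6 largest rises and 6 largest falls called in the averaged response whose glucose levels did not overlap, the lowest p of each of 17 lists, and genes the study measured. The values of some genes this rule names are not reported here. Other list members named with values, such as *Errfi1*, *Dusp4*, *Dusp5*, *Spry1*, *Insm1*, *Mafa*, *Neurod1* and *mt-Nd3*, were chosen after their values were seen. The gene lists and the question itself were chosen with earlier results of these data known. Alternatives were DESeq2's size factors, DESeq2 1.42.0's Wald test, keeping every gene with a count, a minimum of 10 counts in each library, a replicate block, limma 3.58.1 on log2(FPKM + 1) and log2(FPKM + 0.1), and each library left out. Alternatives for the difference between treatments in low glucose were added after seeing the data.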

Additional observations from a re-analysis of the deposited data

How the results depend on the processing

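With few exceptions the interaction was called in 0 genes. DESeq2's Wald test called 1 gene (*Egr1*), the fit with no filter on low counts called 6, and limma on log2(FPKM + 1) with no filter called 5, each with a mean of 0.25 counts. Of the 6, the pseudogene *Rpl23a-ps3* (mean of 595.5 counts) had the lowest adjusted p in edgeR, 3.58e-05, beside 0.00113 for *Egr1*. Leaving out a library gave 0 to 2 calls, the 2 (*Egr1* and the pseudogene *Rpl23a-ps3*) without the first high glucose TMAO library. Genes at an unadjusted p under 0.05 numbered 331 with the Wald test, 1088 and 1102 with no filter on counts or FPKM, and 378 to 992 with a library left out (992 without the second low glucose TMAO library and 860 without the second high glucose vehicle library). Calls for the response with TMAO were 351 and 334 with limma on log2(FPKM + 1) and log2(FPKM + 0.1), and with limma and no filter they were 238, against 261 with vehicle and 759 averaged. With a library left out they ran from 328 to 625 with vehicle (341 and 328 without the second low and the third high glucose library), from 344 to 657 with TMAO (365 and 344 without the first low and the third high glucose library) and from 981 to 1446 averaged. The median signed interaction ran from -0.022 to 0.040, the highest without the second low glucose TMAO library. In low glucose, 7 genes were called between treatments with no filter, 0 with either limma fit on filtered FPKM values, where *Egr1* stood at 0.42 and 0.51, and 3 with limma and no filter, not including *Egr1*. The cause of these shifts was not tested.

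The replicate numbers were not treated as pairs in the main fit. Same-numbered libraries of different groups had correlations of their deviations from -0.038 to 0.21, with 2 of 18 over 0.1. Their mean was 0.033, beside -0.016 for libraries of different numbers, and 10 of 12 libraries correlated best with their own number. With the replicate block the interaction was called in 0 genes, with 709 at an unadjusted p under 0.05. The responses were called in 717 (vehicle), 783 (TMAO) and 1678 (averaged) genes, against 536, 591 and 1328 without the block.

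Some of the named genes' interactions changed sign. *Itpr1* was -0.00098 with at least 10 counts in every library and -0.00018 with limma on log2(FPKM + 0.1). *Cebpd* was 0.0015 with the replicate block, and with limma on log2(FPKM + 1) *Cebpd* and *Fos* were both 0.0044. In CPM, *Cebpd* (0.36), *Nr4a1* (2.68), *Fos* (2.81) and *Tbx3* (-0.030) had the other sign. With a library left out, 18 genes changed sign at least once, with ranges of -0.074 to 0.034 for *Ins2*, -0.096 to 0.19 for *Tbx3*, -0.0060 to 0.090 for *Xbp1*, -0.016 to 0.20 for 1810032O08Rik, -0.13 to 0.039 for *Ryr2*, -0.25 to 0.016 for *Nr4a1*, -0.052 to 0.0997 for *Sik1*, -0.015 to 0.095 for *Rela*, -0.019 to 0.079 for *Atf6*, -0.028 to 0.0078 for *Atp2a2*, -0.038 to 0.051 for *Itpr1*, -0.15 to 0.68 for *Atp2a1*, -0.80 to 0.14 for *Pycard*, -0.024 to 0.040 for *Eif2ak3*, -0.051 to 0.076 for *Ins1*, -0.072 to 0.21 for *Zfp39*, -0.24 to 0.059 for *Ryr3* and -0.10 to 0.098 for *Cebpd*. The list medians moved by more than the spread between replicates in 13 of 340 cases. With a library left out the medians changed sign for the CREB targets (-0.060 to 0.044), the hormone genes (-0.037 to 0.014), the *Txnip* and ChREBP genes (-0.011 to 0.056), the plasma membrane and mitochondrial calcium genes (-0.019 to 0.058), the inflammasome genes (-0.0075 to 0.026), the unfolded protein response genes (-0.017 to 0.023) and the cholesterol genes (-0.024 to 0.027). *Egr1*, *Dusp6*, *Spry4* and *Irs2* kept their sign under every alternative run, although with a library left out *Spry4* ran from -1.08 to -0.48, and with limma on log2(FPKM + 1) *Spry4* and *Dusp6* were -0.19 and -0.31.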
